A study of Mus musculus with 4 samples.

Results

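The promoters of the cytosolic ribosomal protein genes were examined in DNase-seq of mouse naive CD8 T cells. Members were all protein-coding genes of the GENCODE mouse annotation on mm10 whose symbol starts with Rpl or Rps followed by a number, p and a number, or a single a, without the Rps6k kinases and without names containing -ps. The rule took 86 of 21951 protein-coding genes. They were 31 small subunit proteins, 43 large subunit proteins, 3 proteins of the acidic stalk, 8 paralogs or retrogenes, and Rps19bp1, a gene the symbol rule takes although its product binds a ribosomal protein and is not one. The rule used names alone and no measured value, but it was proposed with earlier results of these data known.

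A ribosome is built from ribosomal RNA and a full set of small and large subunit proteins, each encoded in mammals mainly by a single intron-containing gene, with many intronless pseudogene copies elsewhere in the genome. Their promoters often lack a canonical TATA box, and their messages are known to begin with a C inside a run of pyrimidines, the terminal oligopyrimidine tract, through which mTOR signalling controls their translation. Naive T cells are small resting cells that make little protein until they meet antigen.

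DNase I cuts accessible chromatin, and sequencing of the cut ends gives peaks at open sites and short protected stretches, called footprints, inside them. There were 4 libraries, which the labels number as biological replicates 1 to 4. All hold primary alpha-beta T cells, described as CD8-positive, naive and resting, from virgin female mice of the F1 strain B6CASTF1/J at 2 months of age. No treatment or genotype contrast is labelled, so the 4 form a single group, and all 4 libraries share 1 donor identifier, so the spread between libraries may be technical. The longer lists of replicates 1 to 4 had 69413, 70552, 51121 and 20647 peaks, and the smallest step between heights corresponds to 109, 62.9, 91.5 and 24.3 M tags.

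The libraries did not match the label equally at marker promoters. Cd8a, the CD8 alpha chain, had a promoter peak in replicates 1 and 2 and none in replicates 3 and 4, while Cd8b1, the beta chain, had one in all 4. Peaks at Cd79a, a B cell receptor gene, were called only in replicates 3 and 4. Zbtb7b, a helper T cell regulator, was at 0.251 and 0.358 in replicates 1 and 2 against 0.746 and 1.12 in replicates 3 and 4. Cd4, the other gene of the helper list, had no promoter peak in any library. The helper list was thus called at 1 of 2 promoters in each library, and the CD8 list at 3, 3, 2 and 2 of 3. The B cell list was called at 3, 2, 4 and 2 of 5 promoters in replicates 1 to 4, the T cell list at 6, 6, 6 and 3 of 6, and the myeloid list at 3, 3, 3 and 0 of 4. The part of these differences in the values that follow was not tested, and the counts of promoter calls and footprints and the median height are therefore also given for replicates 1 and 2 alone.

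Heights are given as relative heights: the deposited height of the tallest peak within 1 kb of any annotated start, divided by that library's median height over the 17545 sites that had a peak in every library. A value of 1 is thus the typical height of a shared site. Reference sequences below come from the RefSeq promoter table (build GRCm38.p6), which held 66 of the 86 members, and the letters are those of the reference strain. Members not in that table include Rpl3, Rpl7, Rpl8, Rpl17, Rpl21, Rpl23a, Rpl29, Rpl30, Rpl32, Rpl36, Rplp1, Rps14, Rps20, Rps27a and Rps29.

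The first sequences are promoters of 4 members among the 10 tallest, shown because they show where footprints lay at the most open members. Each runs 5′ to 3′ on the gene's strand, and capitals mark bases inside footprints of at least 3 libraries.
Rps3a1, chr3:86142683-86142858, minus strand: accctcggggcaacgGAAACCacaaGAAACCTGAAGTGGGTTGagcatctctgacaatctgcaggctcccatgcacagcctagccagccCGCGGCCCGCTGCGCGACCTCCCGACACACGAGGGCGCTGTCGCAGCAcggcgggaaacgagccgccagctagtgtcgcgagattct
Rplp0, chr5:115559217-115559486, plus strand: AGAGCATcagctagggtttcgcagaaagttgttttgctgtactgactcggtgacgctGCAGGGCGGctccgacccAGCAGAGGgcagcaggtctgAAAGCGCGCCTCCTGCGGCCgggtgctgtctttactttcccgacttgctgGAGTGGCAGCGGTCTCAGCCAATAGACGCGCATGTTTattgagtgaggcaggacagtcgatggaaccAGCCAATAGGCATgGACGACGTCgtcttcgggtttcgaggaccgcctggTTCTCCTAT
Rps12, chr10:23787256-23787459, minus strand: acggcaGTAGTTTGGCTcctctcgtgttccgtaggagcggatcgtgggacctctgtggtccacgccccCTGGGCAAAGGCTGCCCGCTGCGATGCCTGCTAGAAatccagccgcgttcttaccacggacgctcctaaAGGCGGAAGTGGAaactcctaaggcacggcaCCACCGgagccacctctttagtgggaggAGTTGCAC
Rpl23, chr11:97782420-97782516, minus strand: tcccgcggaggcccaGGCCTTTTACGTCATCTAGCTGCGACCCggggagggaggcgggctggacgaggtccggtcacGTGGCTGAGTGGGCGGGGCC
For contrast, the region before the start of a member with no peak in any library, with no capitals because no base was footprinted in 3 libraries:
Rps27rt, chr9:114982720-114982839, minus strand: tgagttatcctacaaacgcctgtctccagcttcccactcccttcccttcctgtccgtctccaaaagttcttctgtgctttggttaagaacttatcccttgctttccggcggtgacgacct

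In the Rplp0 window a single protected stretch of 37 bases, from −105 to −69 relative to the main start, was the widest of its 8 shared footprints. The Rps12 promoter held a protected stretch of 36 bases from −116 to −81 relative to its start. Rps27rt, an intronless copy of Rps27, had 0 footprints in every library. The 36 bases from its main start occur 4 times in the assembled chromosomes. Reads there can be lost in alignment, so the absence of peaks and footprints at Rps27rt is uncertain.

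Nearly every member had an accessible promoter. A promoter peak was called in at least 3 libraries at 82 members (95.3%), against a background of 55.2% of all protein-coding genes, and in all 4 libraries at 81 members, against 45.8%. Per library, 82, 82, 82 and 81 members were called in replicates 1 to 4, where the share over all protein-coding genes was 58.3%, 58.3%, 56.7% and 46.1%. In replicates 1 and 2 alone the same 82 members were called in both, beside 56.6% of all genes. The 4 members with no peak in any library were all paralogs or retrogenes: Rpl3l, a muscle form of Rpl3; Rpl10l, a retrogene of Rpl10 known from testis; Rpl39l, a testis form of Rpl39; and Rps27rt. Their 25 kb surroundings held 5 consensus sites at Rpl3l and 0 at the other 3.

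Rpl23a, a large subunit protein at the exit of the peptide tunnel, was the only member called in some libraries and not in others. Its relative height was 0.722, 0.625 and 0.701 in replicates 1, 2 and 3, and no peak was called in replicate 4, the library with the fewest tags. It was the lowest called member in replicates 1 and 3. Cut-rate intervals covered 16.1% of the sequence within 1 kb of its start on average, the lowest share of the called members apart from Rps10.

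Heights were above those of most promoters. Over the 81 members called in all 4 libraries, the median of the mean relative height was 2.12 (quartiles 1.67 and 2.64), against 1.56 over the 9977 other protein-coding genes called in all 4. The members' median was 2.08, 2.10, 2.27 and 2.04 in replicates 1 to 4, and 2.15 over the 82 members in replicates 1 and 2 alone. Ranked among all called coding promoters of a library, the median member stood at the 77.0th, 76.8th, 77.5th and 67.7th percentile. Above the median called promoter were 89.0%, 92.7%, 91.5% and 75.3% of called members in replicates 1 to 4. Of other called coding genes, 49.7%, 49.7%, 49.8% and 49.7% were above it. Of the 81 members, 58 were above it in all 4 libraries, and Rpl6 and Rps4x were among those below it in all 4. The share of other coding genes above it in all 4 libraries was not computed.

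Other large complexes with a shared housekeeping role were about as often accessible but lower. Mitochondrial ribosomal protein genes were called in all 4 libraries at 94.9% of 78 promoters, proteasome subunit genes at 92.5% of 40, and nuclear oxidative phosphorylation genes at 85.9% of 85. Their median mean relative heights were 1.51, 1.70 and 1.75, each below the 2.12 of the cytosolic set. These are descriptions without a test, since gene sets within the same 4 libraries are not replicates.

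**Figure D1:**
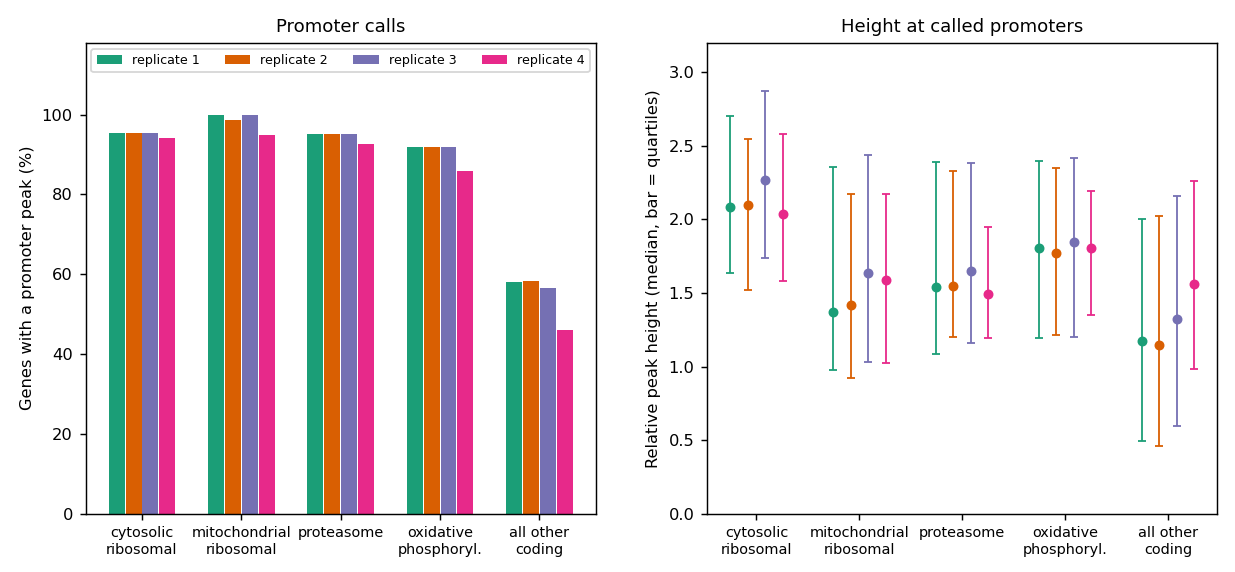
Left, share of genes with a promoter peak (%, bars, 1 per library); right, relative peak height at the called promoters of each library (points, medians; bars, quartiles). Cytosolic ribosomal protein genes had medians from 2.04 to 2.27, above the median of every other group in each library.

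The small subunit genes had a median mean relative height of 2.21 (range 0.885 to 4.33, 31 genes) and the large subunit genes 1.88 (0.729 to 3.59, 42 genes called in all 4 libraries). The small subunit median was higher in each library, at 2.29, 2.28, 2.32 and 2.05 against 1.88, 1.89, 2.04 and 2.00, but in replicate 4 the margin was small beside the spread of either group.

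Rps3a1 (ENSMUSG00000028081.6, chr3:86137940-86142702), a small subunit protein near the message exit, had the tallest promoter of the set. Its relative height was 4.30, 3.48, 4.71 and 4.82 in replicates 1 to 4 (mean 4.33 ± 0.607, SD, n = 4). Replicate 2 was the lowest of the 4. Rps12, a small subunit protein, was at 3.98, 3.98, 4.13 and 2.81, with replicate 4 well below the other libraries. Rps28, another small subunit protein whose start lies 10 bp from that of Ndufa7 on the opposite strand, was at 4.18, 3.28, 4.11 and 3.21. A peak over both starts cannot be assigned to either gene.

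Several small subunit genes are known for roles beyond the structure of the ribosome. Rps6, the substrate of the S6 kinases, was at 2.08, 2.40, 3.03 and 2.37 (mean 2.47 ± 0.398, SD, n = 4). Rps19, mutated in Diamond-Blackfan anaemia, was at 2.60, 2.66, 2.88 and 2.65 (mean 2.70 ± 0.125, SD, n = 4). Rps14, a small subunit protein of the platform, was at 1.95, 1.52, 2.36 and 2.23. Rps3, which lines the message entry, had a mean of 2.18 ± 0.215, and Rpsa, also known as the laminin receptor, 2.07 ± 0.228 (SD, n = 4 each). Rps19 was above Rps3 and Rpsa in each library, while Rps3, Rpsa and Rps14 overlapped. The Rps19 height is that of a peak whose middle lay more than 250 bp upstream of the main start and which did not cover that start in any library.

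Rps4x, the X-linked form of Rps4, was near the low end of the small subunit genes, at 0.838, 0.640, 1.09 and 0.982 (mean 0.888 ± 0.196, SD, n = 4).

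Among large subunit genes, Rpl7a had the highest mean, at 3.16, 3.93, 3.77 and 3.49 (mean 3.59 ± 0.336, SD, n = 4). Rpl37, Rpl18 and Rpl23, all proteins of the large subunit body, followed with means of 3.54 ± 0.541, 3.48 ± 0.218 and 3.41 ± 0.474, and the 4 means span less than the SD of each gene, so the order of Rpl7a and these 3 is not resolved. Annotated starts of Rpl7a and Rpl18 lie 87 and 69 bp from those of Med22 and Sphk2 on the opposite strand. The heights of these 2 members therefore cannot be assigned to them alone. Rpl3, which reaches toward the peptidyl transferase centre, was at 3.78, 3.79, 2.88 and 3.12, lower in replicates 3 and 4 than in 1 and 2 without overlap.

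Rpl5 and Rpl11 bind the 5S ribosomal RNA together and are known to restrain MDM2 when ribosome assembly fails. Rpl5 was at 1.93, 2.37, 2.31 and 2.32 (mean 2.23 ± 0.203, SD, n = 4) and Rpl11 at 1.69, 2.09, 1.69 and 0.982 (mean 1.61 ± 0.462, SD, n = 4). Rpl5 was the higher of the pair in each of the 4 libraries. Rpl13a, known as a regulator of inflammatory messages, was at 2.70, 2.61, 2.40 and 2.46.

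Rpl22, which is needed for alpha-beta T cell development in mice, and its paralog Rpl22l1 were both accessible in all 4 libraries. Rpl22 was at 1.70, 1.55, 1.76 and 1.74 (mean 1.69 ± 0.0958, SD, n = 4), and Rpl22l1 at 3.83, 3.85, 3.66 and 2.74 (mean 3.52 ± 0.528, SD, n = 4). The paralog was the taller in every library, with no overlap. Of the other paralogs, Rpl36al was at 1.83, 1.79, 2.35 and 2.53 beside 1.44, 1.66, 1.57 and 1.19 at its X-linked relative Rpl36a. The start of Mgat2 lies 74 bp from that of Rpl36al on the opposite strand, so the Rpl36al height cannot be assigned to it alone. Rps27l, a paralog of Rps27 known to respond to p53, had a mean of 1.55 ± 0.211, and Rps27 itself 1.85 ± 0.542 (SD, n = 4 each), so that pair overlapped.

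Rpl6 was the lowest member called in all 4 libraries, at 0.862, 0.636, 0.856 and 0.561 (mean 0.729 ± 0.153, SD, n = 4). The next lowest large subunit genes called in all 4 libraries were Rpl39 and Rpl35, both near the peptide tunnel exit. Their means were 1.21 ± 0.30 and 1.25 ± 0.0951. Rpl38, known for its role in the translation of Hox messages, varied widely between libraries, at 2.08, 2.29, 1.74 and 1.07. Rpl10, a late-joining large subunit protein, was at 1.67, 1.71, 1.96 and 1.04, and Rpl41, the smallest ribosomal protein, had a mean of 1.53 ± 0.159 (SD, n = 4).

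The stalk, which recruits elongation factors, is made of Rplp0 and copies of Rplp1 and Rplp2. Rplp0 (ENSMUSG00000067274.10, chr5:115559467-115563727) was at 4.30, 3.66, 4.36 and 3.54 (mean 3.96 ± 0.420, SD, n = 4), the second tallest promoter of the set. Rplp1 was at 2.15, 2.49, 2.45 and 2.26 and Rplp2 at 1.92, 1.44, 2.75 and 1.44. The base of the stalk was thus the tallest of the 3 in each library.

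**Figure D2:**
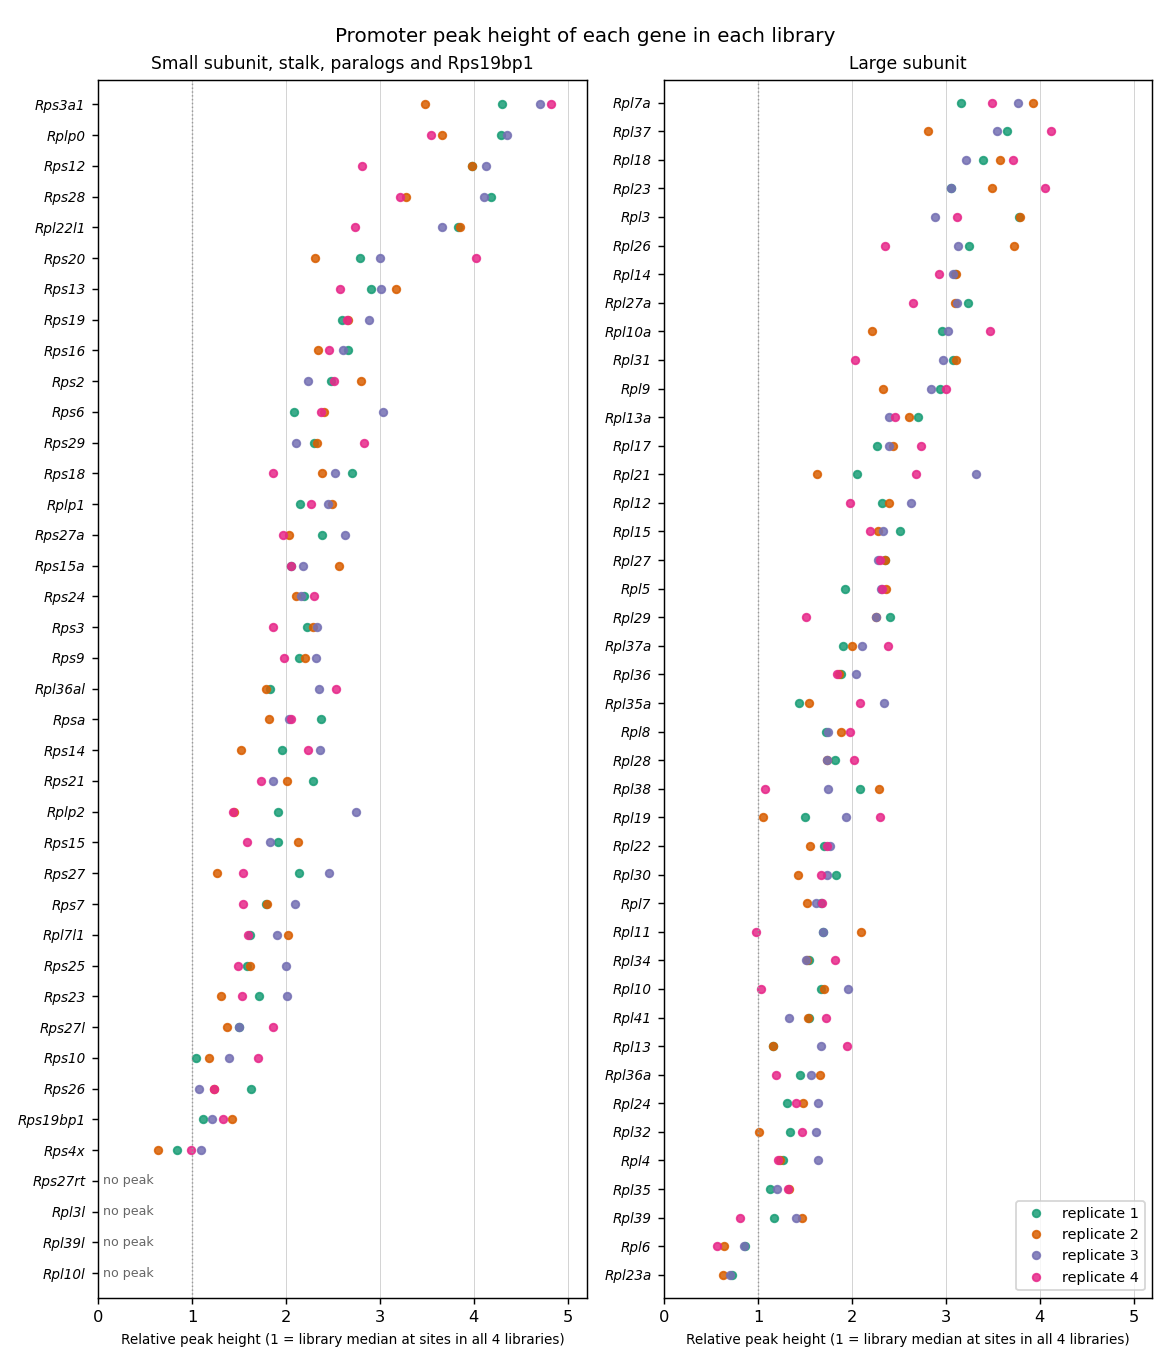
Relative promoter peak height of each gene (x axis; 1 is the library median at sites called in all 4 libraries), with 1 point per library and genes ordered by their mean. Rps3a1 stands at the top with 3.48 to 4.82, and 4 paralogs or retrogenes have no peak; a few members are not plotted.

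The order of the members was largely shared between libraries. Across the 81 members Spearman's rho was 0.901 between replicates 1 and 2, 0.827 between 3 and 4, and lowest, 0.750, between 2 and 4. These are correlations across genes that share the same libraries and are descriptions only. Relative height was higher in replicates 3 and 4 than in 1 and 2 without overlap at 17 members, against a background of 37.3% of the 10058 coding genes called in all 4 libraries, and lower without overlap at 13, against 16.5%. Thus 21% of the members were higher and 16.0% lower, with 51 members overlapping.

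The 4 X-linked members were all in the lower part of the range. Rps4x, Rpl39, Rpl36a and Rpl10 had a median mean relative height of 1.34, against 2.18 for the 77 autosomal members called in all 4 libraries. Among the other coding genes the medians were 0.881 on the X and 1.58 on the autosomes, so X-linked promoters were lower in both sets. The highest X-linked member, Rpl10, had a mean of 1.59.

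Ribosomal protein genes are known hosts of small nucleolar RNAs, which guide the modification of ribosomal RNA. In the annotation 30 members (34.9%) held 58 such RNAs on their own strand, against 1.14% of other coding genes. Rpl4 held 5 and Rpl13a held 4. The host members had a median height of 2.42 and the others 1.99. Among other coding genes the 172 hosts called in all 4 libraries had a median of 1.91 and the rest 1.55. Rpl6, which held 1, was nevertheless among the lowest promoters.

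Of the 86 members, 19 had another coding start within 1 kb, 18 of them on the opposite strand. Their median height was 2.25, against 2.08 for members without such a neighbour. Where a peak covers the starts of both genes, its height cannot be assigned to either. Without these 19 members, 63 of 67 members were called in at least 3 libraries. The share over all protein-coding genes, with or without a neighbour, was 55.2%, and that of genes without a neighbour was not computed. The loci with most consensus sites within 25 kb were Rpl18 with 12, and Rpl10, Rpl23a and Rps16 with 10 each, while the median member had 5. Sites in these windows are not assigned to the members. Inside the gene bodies away from the promoters, only 5 members (5.81%) had a site, against 27.4% of other coding genes, whose median length is 17568 bp against 3328 bp here.

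The peaks sat on the starts. The middle of the tallest peak lay at a median of −23.5, −26.5, −13.5 and −8.5 bp relative to the main start (negative values are upstream) in replicates 1 to 4. It lay within 150 bp of that start at 87.8%, 80.5%, 81.7% and 81.5% of called members, against 59.3%, 60.02%, 59.6% and 65.4% of other called coding genes. The like groups were close to the members. Mitochondrial ribosomal protein genes had 83.3%, 81.8%, 85.9% and 81.1%, and proteasome genes 86.8%, 84.2%, 78.9% and 81.1%. Oxidative phosphorylation genes had 79.5%, 75.6%, 76.9% and 76.7%. For Rps10, Rps15a, Rps19, Rpl4, Rpl10, Rps25 and Rpl35 the middle of the tallest peak lay more than 250 bp from the main start in every library. In Rps10 it lay more than 1 kb downstream of the main start. The start in the RefSeq promoter table lies downstream of the main start by 1425 bp at Rps10 and 493 bp at Rpl35. At Rps15a it lies upstream by 470 bp. In Rps10, Rpl35 and Rps15a the tallest peak thus lay near the RefSeq start. The RefSeq start lies 575 bp from the main start at Rps25, and 38, 12 and 4 bp from it at Rps19, Rpl4 and Rpl10.

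Cut-rate intervals, the stretches where the deposited rate of cutting passed a false discovery rate of 0.05, covered a median of 49.9% of the 1 kb on each side of the main start over all 86 members. Within 250 bp of the start the median was 97.5%. The library medians were 58.3%, 53.3%, 56.3% and 29.6% in replicates 1 to 4, the last in the library with the fewest tags. Rpl7, a large subunit protein, had the widest coverage at 84.4%. Over called coding promoters the library medians were 59.0%, 54.0%, 56.6% and 29.9% for members and 51.6%, 45.3%, 48.2% and 25.8% for other genes.

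**Figure D3:**
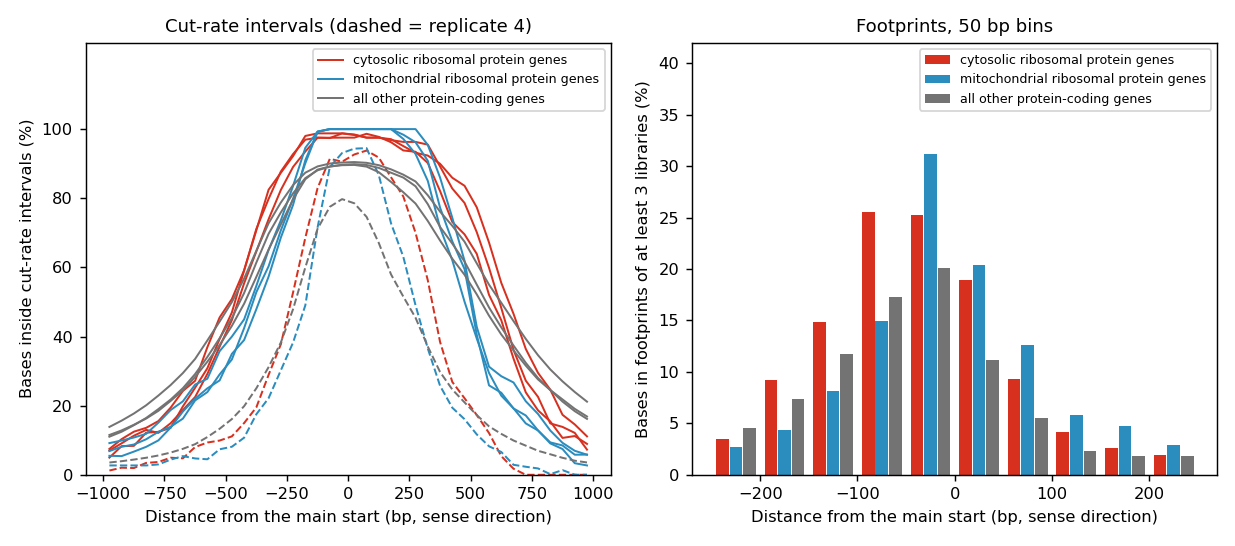
Left, bases inside cut-rate intervals (%) by distance from the main start (bp, 50 bp bins, 1 line per library and group); right, bases inside footprints of at least 3 libraries (%) in 50 bp bins. Promoters called in all 4 libraries are shown, and members peak at 25.5% footprinted bases from −100 to −50 bp.

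Footprints were found at 80 members (93.0%) in at least 3 libraries, against a background of 43.6% of all protein-coding genes, and at 70 members in all 4 libraries, against 30.7%. In at least 3 libraries they were found at 97.4% of mitochondrial ribosomal protein genes, 90% of proteasome genes and 85.9% of oxidative phosphorylation genes. The 6 members that did not reach 3 libraries were the 4 uncalled genes, Rps10 and Rps15a. In replicates 1 and 2 alone 80 members had one in both, beside 44.8% of all genes. When any annotated start was allowed, an alternative added after seeing the data, all 82 called members had one, beside 49.1% of all genes. The number per called member averaged 6.59, 5.78, 6.78 and 2.44 in replicates 1 to 4, against 4.28, 3.76, 4.37 and 1.73 at other called genes. Fewer footprints were called in replicate 4 in both sets.

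Rplp0 had the most footprints, 12, 9, 11 and 6 in replicates 1 to 4. Rpl7 had 12, 6, 15 and 4, and Rps27a, which is made as a fusion with ubiquitin, had 10, 6, 17 and 4. Rps23, a protein of the decoding centre, had 11 in each of replicates 1 to 3 and 3 in replicate 4, and Rps12 had 10, 9, 9 and 5. At the low end of the called members, Rpl35 had 1, 2, 1 and 0 and Rps25 had 3, 1, 2 and 0, both with peaks away from the main start.

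Counting only stretches protected in at least 3 libraries, 78 members held 318 footprints with a median width of 11 bp. Of these, 206 had their middle upstream of the start and 126 lay in the last 100 bp before it. The share of bases protected was 25.5% from −100 to −50 bp, 25.2% in the last 50 bp and 19% in the first 50 bp after it. At other coding genes called in all 4 libraries the same shares were 17.2%, 20.1% and 11.1%. They were 14.9%, 31.2% and 20.4% at mitochondrial ribosomal protein genes and 19.8%, 26.2% and 16.3% at proteasome genes. At oxidative phosphorylation genes they were 13.8%, 27.2% and 18.3%. In the last 50 bp before the start, the members were thus not above these 3 groups. Rplp0 and Rps18 had 8 shared footprints each, and Rps2, Rps12, Rps16 and Rps23 were among those with 7. Rps23 with 7 shared footprints had a mean height of 1.64, and Rpl7a with 2 had 3.59. For footprints summed over the 4 libraries, shared or not, Spearman's rho with mean height was 0.290 across the 81 members (a description across genes).

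**Figure D4:**
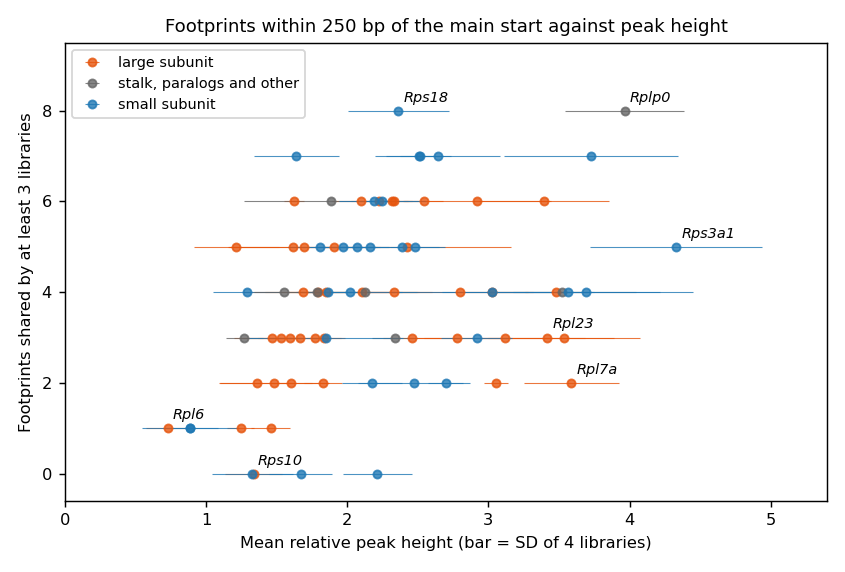
Footprints shared by at least 3 libraries within 250 bp of the main start (y axis, count) against mean relative peak height (x axis; bars, SD of 4 libraries), 1 point per member called in all 4 libraries. Rplp0 is high on both axes, and Rpl7a combines a mean height of 3.59 with 2 shared footprints.

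The RefSeq promoters, 250 bases before to 50 after each start, were searched on both strands for short motif letters. Matches describe letters and not bound factors. The ETS letters CCGGAAG were in 37.9% of the 66 member promoters, against 12.3% of 16455 other coding promoters and 36.2% of mitochondrial ribosomal protein promoters. The SP/KLF letters GGGCGG were in 60.6% against 48.5% of other coding promoters, and the YY1 letters GCCATNTT in 18.2% against 6.70%. The YY1 share was as high or higher in the like groups. It was 30.4% in mitochondrial ribosomal protein, 21.2% in oxidative phosphorylation and 18.2% in proteasome promoters. The SP/KLF shares there were 47.8%, 39.4% and 57.6%. The NFY letters CCAAT were in 30.3% of members against 38.6% of other coding promoters and the RUNX letters TGTGGT in 10.6% against 14.9%. TATAAA placed 40 to 20 bases before the start was in 1.52% against 2.81%.

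The ZBTB33 palindrome, whose letters are the capitals in the windows that follow, was in 6 of the 66 member promoters (9.09%) against 0.681% of other coding promoters. The windows are shown because the letters are identical in all 6 and at least 4 of their 10 bases were protected in 3 libraries in each; capitals mark the palindrome.
Rpl10a, chr17:28328524-28328553: aacgggcaacTCTCGCGAGAacgcgggctc
Rpl12, chr2:32961648-32961677: ggccagcggtTCTCGCGAGAgctgagcttt
Rpl26, chr11:68901530-68901559: gctccgagacTCTCGCGAGAtctcgcggca
Rps19, chr7:24884574-24884603: cactccgaaaTCTCGCGAGActcgacgccc
Rps28, chr17:33824544-33824573: ccgcgtgcggTCTCGCGAGAgcgaaagtga
Rps6, chr4:86857399-86857428: cgccggctgtTCTCGCGAGAacttagagcg
Rps28 and Rps6 are given on the minus strand and the others on the plus strand. Within footprints of at least 3 libraries lay 10 of the 10 palindrome bases at Rpl12, Rpl26, Rps19 and Rps6, 9 at Rpl10a and 4 at Rps28. The 6 genes come from both subunits, and their mean heights ran from 2.33 at Rpl12 to 3.69 at Rps28, each above the members' median. The height at Rps19 is that of another peak. Its middle lay −653.5, −653.5, −503.5 and −663.5 bp from the main start in replicates 1 to 4, and it did not cover the palindrome. Rpl12 and Rps28 have the starts of Lrsam1 and Ndufa7 33 and 10 bp away on the opposite strand, so their heights cannot be assigned to the members alone. With at least 5 of 10 bases protected, 5 of 6 matches were footprinted, beside 84 of 106 matches (79.2%) at other coding promoters called in all 4 libraries.

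The NRF1 motif, in which only the fifth base is free, occurred 7 times in 6 member promoters (9.09% against 6.87% of other coding promoters), and 6 of the 7 matches were footprinted, beside 83.6% at other promoters. Its share was higher in the like groups, at 18.8% of mitochondrial ribosomal protein, 24.2% of oxidative phosphorylation and 18.2% of proteasome promoters. The GENCODE main start lies 30 and 22 bases downstream of the RefSeq start at Rpl37a and Rps15, so their matches lie before it. At Rps16 it lies 37 bases upstream, so the match there is further after it. The 5 matches below are shown because they lie across or just after the RefSeq start, with capitals for the match.
Rpl10a, chr17:28328551-28328580, plus strand: ctctatttgaGCGCATGCGCaaagcgctct
Rpl37a, chr1:72711257-72711286, plus strand: gtctaaaaccGCGCATGCGCattgcgtccc
Rpl7l1, chr17:46782644-46782673, minus strand: cggtgaggctGCGCAAGCGCagtagctgaa
Rps15, chr10:80292428-80292457, plus strand: cgcgataactGCGCAAGCGCagcccgtact
Rps16, chr7:28350693-28350722, plus strand: agcactcaatGCGCCTGCGCagaccctgaa
All 10 bases of each of these 5 matches were protected in at least 3 libraries. Rpl10a thus held the palindrome and, just after it, the NRF1 letters, both footprinted. The remaining 2 matches were in Rpsa.

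Protection differed between motifs. In member promoters called in all 4 libraries, 37 of 59 SP/KLF matches (62.7%), 11 of 28 ETS matches (39.3%) and 4 of 5 matches to TGACGTCA, the CRE letters, were footprinted. Only 2 of 13 YY1 matches (15.4%) were, beside 17.5% of all bases in the same windows. At other coding promoters the shares were 41.9% for SP/KLF, 31.3% for ETS, 80.4% for CRE and 18.6% for YY1, beside 12.9% of all bases. A match outside a footprint says nothing of binding.

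The pyrimidine run at the start was frequent in the set. A run of 10 or more C and T on the sense strand touching the 10 bases on either side of the RefSeq start was found in 22 of 66 members (33.3%), against 6.67% of other coding genes and 8.70% of mitochondrial ribosomal protein genes. The annotated start was a C in 31.8% against 14%. Measured at the GENCODE main start, the run was in 22.7% of the same 66 members and 25.6% of all 86, against 6.85% of all other coding genes. The longest runs are shown with the 15 bases on each side of the RefSeq start and the run in capitals, as far as it falls inside.
Rpl7a, chr2:26910792-26910821, plus strand: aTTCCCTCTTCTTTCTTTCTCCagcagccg
Rpl27a, chr7:109519180-109519209, plus strand: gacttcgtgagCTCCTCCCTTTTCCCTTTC
Rpl34, chr3:130730323-130730352, minus strand: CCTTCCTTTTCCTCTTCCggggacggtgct
Rpl35, chr2:39005117-39005146, minus strand: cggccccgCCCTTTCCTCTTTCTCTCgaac
Rpl15, chr14:18270972-18271001, minus strand: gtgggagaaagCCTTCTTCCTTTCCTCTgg
All 5 belong to the large subunit, with mean heights of 3.59, 3.02, 1.60, 1.25 and 2.33, so the longest runs were found at tall and low promoters alike.

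**Figure D5:**
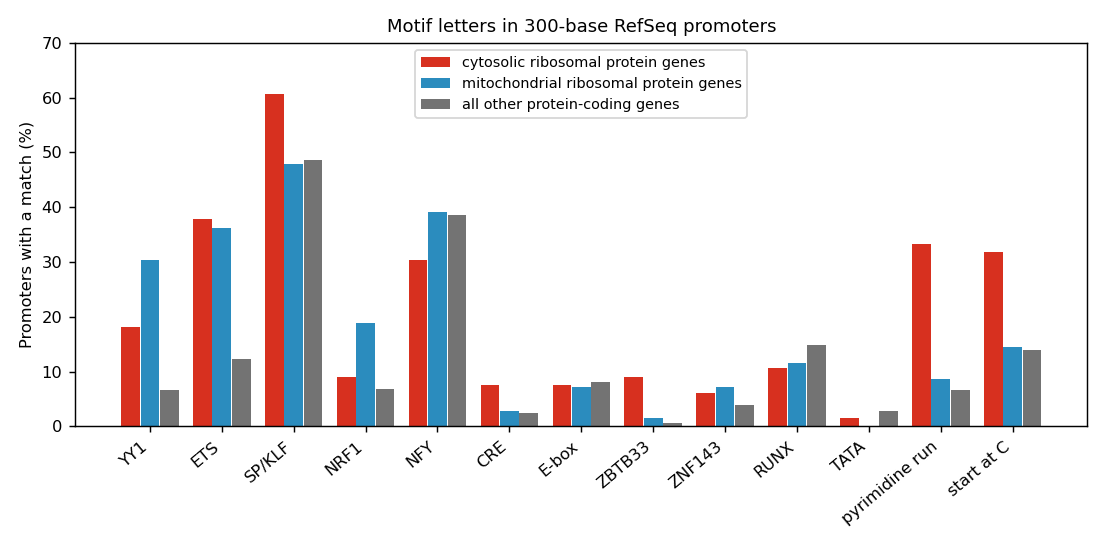
Share of RefSeq promoters (%) with each motif, a pyrimidine run of at least 10 at the start, or a start at C, in members (66), mitochondrial ribosomal protein genes and all other coding genes. The largest gaps to other coding genes are at ETS (37.9% against 12.3%) and at the pyrimidine run (33.3% against 6.67%).

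Pseudogenes with a ribosomal protein name behaved differently. Of 285 annotated genes named with -ps, 5 (1.75%) had a promoter peak in at least 3 libraries, and of the 277 away from coding starts 4 did: Rpl5-ps2, Rpl34-ps1, Rpl10-ps2 and Rps19-ps10. The tallest of these, Rpl34-ps1, was at 0.567, 0.482, 0.512 and 0.579, below every member called in all 4 libraries on its mean. Reads from close copies can be shared or lost in alignment. The 36 bases at the middle of the peak occurred once in the assembled chromosomes for 81 of the 82 called members and 2 times at Rpl35a. From the main start the 36 bases had more than 1 copy at 6 members, with up to 4 copies at Rpl29, Rpl30 and Rps27rt, so the absence of a peak at Rps27rt is uncertain.

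Other genes of translation were open as well. All 3 listed ribosomal parts outside the symbol rule were called in all 4 libraries, among them Fau, which encodes a small subunit protein fused to a ubiquitin-like domain, with a mean of 3.28 ± 0.415, and Rack1, a scaffold of the small subunit, with 1.41 ± 0.441 (SD, n = 4 each). So were all 16 factors whose messages are known to start with the pyrimidine tract (median 2.56), all 14 genes of ribosome biogenesis (median 1.81) and all 15 genes that control translation (median 1.97). Within the last list Larp1, which binds the pyrimidine tract, was low at 0.569, 0.549, 0.646 and 0.737, and Mtor was at 1.58, 1.79, 1.33 and 1.26. Yy1 and Gabpa, whose motif letters were searched, had means of 3.11 ± 0.261 and 1.35 ± 0.148 (SD, n = 4 each).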

How the data were processed

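DNase-seq peaks, footprints and cut-rate intervals of 4 libraries were used, each made from the library's own filtered alignment to mm10, per the text the authors deposited with it; no source used here names the aligner, the caller or their settings. Peak values are a signal deposited by the authors: the peak height scaled to library depth. Its low values were whole multiples of 1 step (within 0.05 of a whole number, 100% of those tested), whose reciprocal gave the tags per library. The deposited footprint and cut-rate values are p-values read as false discovery rates, 0.01 in every footprint and below 0.05 in every cut-rate interval. Files give no read counts per site, so no counting interval is given.

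Gene models were GENCODE mouse release 21. The main start was that of the principal transcript. Peaks of the longer of the 2 lists were merged where they overlapped by 1 bp, giving 86936 sites. A promoter was called where a peak lay within 1 kb of any start; a consensus needed 3 of 4 libraries. Footprints were counted within 250 bp of the main start. Shared footprints were stretches of at least 5 bp covered in at least 3 libraries.

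The design has 1 group and no contrast, so no test between groups was made; Dixon's rule was applied to the 4 library values of each member called in all 4 and of the library summaries. The members, the gene lists and the rule for named genes were chosen with earlier results of these data known. The rule took the 10 tallest and 5 lowest members called in all 4 libraries, members called in fewer, a fixed list, and the 5 with most footprints and most sites at the locus. Genes shown for a palindrome, an NRF1 match, a pyrimidine run, a copy, hosted RNAs or a peak away from the main start, and the other genes named beyond that rule, were picked with their values in view. Alternatives were the shorter lists, other windows and consensus rules, replicates 1 and 2 only, each replicate left out, equal numbers of peaks, stricter cut-rate values and another start for motifs. Functions were tested on simulated data with 2000 genes: 0 calls were wrong and 0 of 300 planted motifs were missed. Python 3.11.15, numpy 2.4.6, scipy 1.17.1 and matplotlib 3.10.9 were used. A few genes are counted in the totals and not reported here by name.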

Additional observations from a re-analysis of the deposited data

Results flagged for a closer look

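Of 84 sets of 4 library values examined (81 members and 3 library summaries), 9 held a sample whose gap to the nearest other, over the whole range, exceeded Dixon's 95% critical value for 4 samples; chance flags about 1 in 20 such sets. In 7 of the 9 the sample that stood apart was replicate 4, the library with the fewest tags. Replicate 4 was the lowest at Rpl14 (2.93, with the other libraries from 3.08 to 3.10), at Rpl22l1 (2.74 against 3.66 to 3.85), at Rpl29 (1.51 against 2.25 to 2.41), at Rpl31 (2.04 against 2.97 to 3.11) and at Rps12 (2.81 against 3.98 to 4.13). It was the highest at Rpl34, with 1.82 against 1.52 to 1.54. In replicate 3, Rpl4 was the highest at 1.64, against 1.21 to 1.26 in the others. In replicate 1, Rpl5 was the lowest at 1.93, against 2.31 to 2.37. The number of members called was 81 in replicate 4 and 82 in the others, the difference being Rpl23a alone. The part of library depth in these values was not tested.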

How the results depend on the processing

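The count of 82 members with a consensus promoter site ran from 81 to 82 under the alternative lists, windows, consensus rules and equal peak numbers. Among members without a coding neighbour it was 63 of 67, a setting for which no background share was computed. Leaving out 1 replicate gave 81 to 82. The median relative height of 2.12 ran from 2.08 to 2.16 under the alternatives on that scale, 2.10 to 2.16 with 1 replicate left out, and as a rank among all peaks of a library it was the 92.7th percentile, a different unit. The count of 80 members with a footprint ran from 70 to 82, and from 70 to 80 with 1 replicate left out, the 70 being the value whenever replicate 4 was required. Cut-rate coverage was 49.9% of 1 kb on each side, 97.5% of 250 bp, 45% and 40.7% at false discovery rates of 0.01 and 0.001, and 46.7% to 56.4% with 1 replicate left out. With the window cut to 100 bases before the start, the SP/KLF share of members went from 60.6% to 45.5%. In that shorter window it was 40.8% of other coding promoters. It was 45.5% of proteasome, 37.7% of mitochondrial ribosomal protein and 31.8% of oxidative phosphorylation promoters. At GENCODE starts the pyrimidine run share of members went from 33.3% to 22.7%. The cause was not tested beyond the shorter window itself. For single members, the mean height moved beyond 1 SD in 3 of 81 genes, all with the 2.5 kb window: Rpl35 (1.25 to 1.81), Rpl41 (1.53 to 1.76) and Rpl13a (2.54 to 2.72). The shorter lists left 79 of the 81 with a value in all 4 libraries. No paired analysis was possible because there is a single group. Replicate 4, with 24.3 M tags, had the fewest footprints and the lowest cut-rate coverage at the members; the part of depth in this was not tested.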

Other observations

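A wider search for TATAAA on the sense strand, chosen after the sequences were seen, covered 60 bases before to 45 after the RefSeq start. It found 5 of 66 members (7.58%) and 4.32% of 16455 other coding promoters. In 4 members, Rpl36a, Rplp0, Rps2 and Rps28, the letters lay after the RefSeq start (6.06%, against 0.510% of other promoters). In Rplp0, Rps2 and Rps28 they began at 17, 17 and 37 bases after it, and all 6 bases were inside footprints of at least 3 libraries. In Rpl36a, at 3 bases after the RefSeq start, none was. Rpl22l1 held the letters at −28 from the RefSeq start with no protected base. The GENCODE main start lies 47 bases downstream of the RefSeq start at Rps2 and 72 bases upstream at Rpl22l1. Relative to the main start, the letters therefore lay before it at Rps2 and after it at Rpl22l1. At Rpl36a, Rplp0 and Rps28 the RefSeq and main starts are the same base. Whether transcription in these cells starts at the annotated base was not measured by DNase-seq.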
